A study of Oryza sativa with 6 samples.

Results

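Gibberellins are plant hormones made from a diterpene precursor, and they promote the elongation of stems and of growing root cells. The cyclases CPS1 and KS1 build ent-kaurene, the oxidases KO2 and KAO turn it into the first gibberellin, and enzymes of the GA20ox and GA3ox families make the active hormone, which GA2ox enzymes inactivate. Active gibberellin binds the receptor GID1, and the complex leads to the breakdown of SLR1, the DELLA protein that holds back gibberellin responses in rice. In plants, active gibberellin is known to lower transcripts of its own late synthesis enzymes and to raise those of GA2ox genes.

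The 10 gibberellin genes described here were chosen by locus identifier out of 37863 loci in the count table, and all 10 passed the filter on low counts that left 24615 loci to test. They are CPS1 (Os02g0278700), KS1 (Os04g0611800), KAO (Os06g0110000), GA20ox1 (Os03g0856700), GA20ox2 (Os01g0883800), GA3ox2 (Os01g0177400), GA2ox1 (Os05g0158600), GA2ox3 (Os01g0757200), GID1 (Os05g0407500) and SLR1 (Os03g0707600). The 2 digits after "Os" give the chromosome. For 6 of the 10, a RefSeq gene table holds the symbol on that chromosome. The names of GA20ox1, GA3ox2, GA2ox1 and GA2ox3 rest on the list of members alone.

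RNA was sequenced from root ends, up to 1 cm from the tip, of rice (Oryza sativa, cultivar Kitaake) at 15 DAT. The co-cultivated group (R+Af, 3 libraries) grew with the floating fern Azolla filiculoides on the nutrient solution, and the control group (R, 3 libraries) grew without it under a covered surface. Plants of both groups were moved as seedlings, 13 days old, into hydroponic boxes, with the box as the replicate unit. Library totals ran from 23477086 to 25120456 estimated counts in the co-cultivated group and from 21551508 to 23703813 in the control group. All 6 root markers checked were detected, with a summed level of 1448 to 2669.9 CPM in co-cultivated libraries and 786 to 1233 CPM in control libraries. Most of this sum came from the silicon transporter genes LSI1 and LSI2. Their means were 896 and 1218 CPM in co-cultivated libraries and 425 and 615 CPM in control libraries. The pair of chlorophyll-binding protein genes checked as markers of green tissue was CAB1R and CAB2R. They summed to 1.77 to 20.2 CPM in co-cultivated libraries and 8.60 to 21.0 CPM in control libraries. The green tissue markers RBCS2 and PSBO were also listed, but the RefSeq gene table did not hold their symbols. Their levels are not reported.

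Levels are CPM, counts scaled to a common library size with TMM factors, and log2 fold changes are co-cultivated over control. A gene is called higher or lower when its edgeR p, adjusted over all 24615 loci, is under 0.05. Transcript lengths were not used here, so levels are compared between libraries and not between genes.

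One gene of the 10, GA20ox1, fell in root tips grown beside the fern, to 0.182 times its control level. The other 9 were not called in either direction. edgeR called 1 member lower and 0 higher, against 1.17% of all tested loci called lower, 1.46% called higher and 2.63% called in either direction. DESeq2 called 1 member lower and 0 higher, against 2.89% and 4.58% of the loci it tested, and limma-voom also 1 lower and 0 higher, against 1.02% and 1.26%. At an unadjusted p under 0.05 there were 2 members, both lower, against 20.4% of all loci in either direction and 10.2% lower, so the members' share in either direction is close to that of the whole table. The groups did not overlap for 2 of the 10 members, GA20ox1 and SLR1, against 27.7% of all loci. The median log2 fold change was −0.20 over the 10 members and −0.03 over all tested loci. A negative value was found for 7 of the 10 members and for 12969 of the 24615 tested loci.

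**Figure D1:**
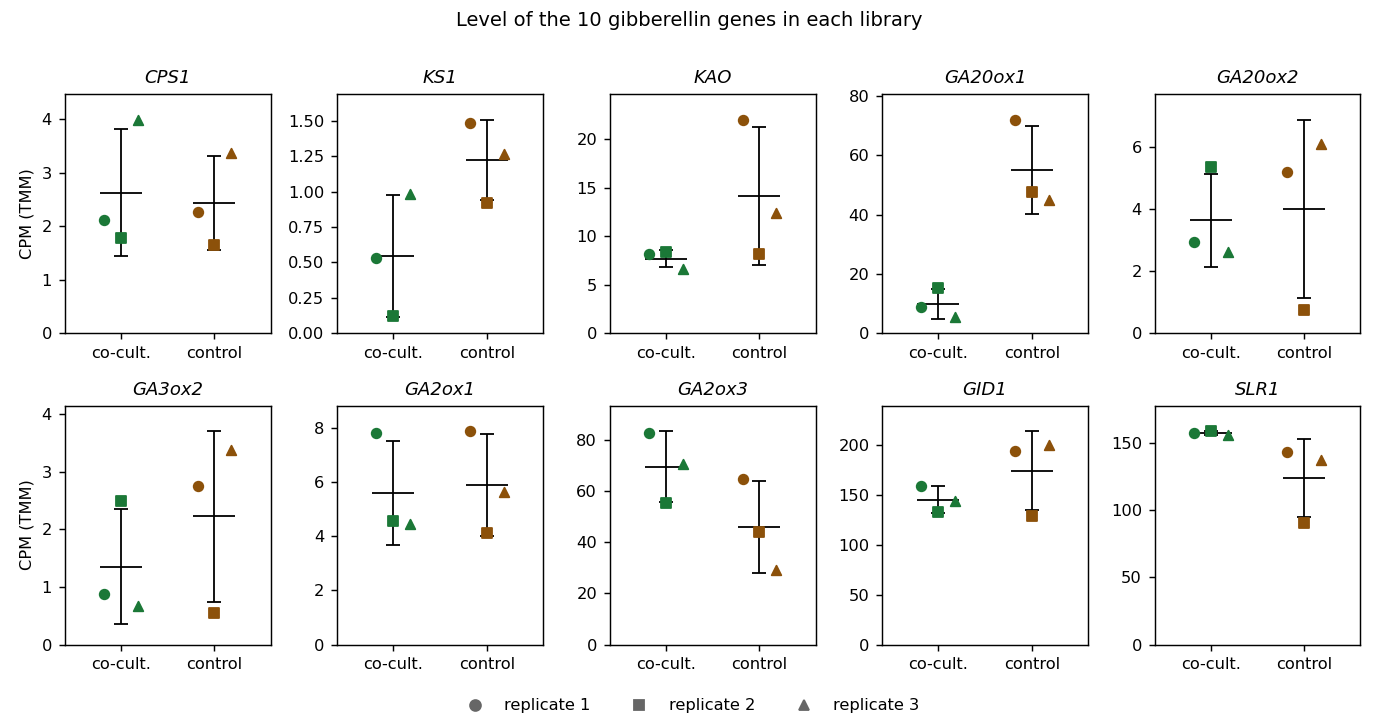
TMM-scaled CPM of the 10 gibberellin genes in each library, with co-cultivated libraries on the left and control libraries on the right of each panel; points are libraries, with a symbol for each replicate number, and bars are the mean and SD of 3 libraries. The GA20ox1 values are 5.57 to 15.4 CPM in co-cultivated libraries and 44.9 to 71.9 CPM in control libraries, while most other panels overlap.

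GA20ox1 encodes a gibberellin 20-oxidase, an enzyme of the late steps that turn early gibberellins into the direct precursors of the active forms. It held 8.94, 15.4 and 5.57 CPM in co-cultivated replicates 1, 2 and 3, against 71.9, 47.7 and 44.9 CPM in control replicates 1, 2 and 3. Every control library stood above every co-cultivated one, and the highest co-cultivated value was well below the lowest control value. The means were 9.96 ± 4.99 CPM in the co-cultivated group and 54.8 ± 14.8 CPM in the control group (SD, n = 3 each). The log2 fold change was −2.46 ± 0.39 (SE, edgeR adjusted p = 0.0261), with a 95% interval from −3.37 to −1.55. In these bulk samples, fewer cells that hold the transcript and less transcript per cell cannot be told apart.

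The direction of GA20ox1 was negative in every fit that left out 1 library, with log2 fold changes from −2.92 to −2.17. The call held without co-cultivated replicate 2, control replicate 2 or control replicate 3 (edgeR adjusted p = 0.0186, 0.0355 and 0.0405). It was lost without co-cultivated replicate 1, co-cultivated replicate 3 or control replicate 1 (edgeR adjusted p = 0.132, 0.0518 and 0.105).

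**Figure D2:**
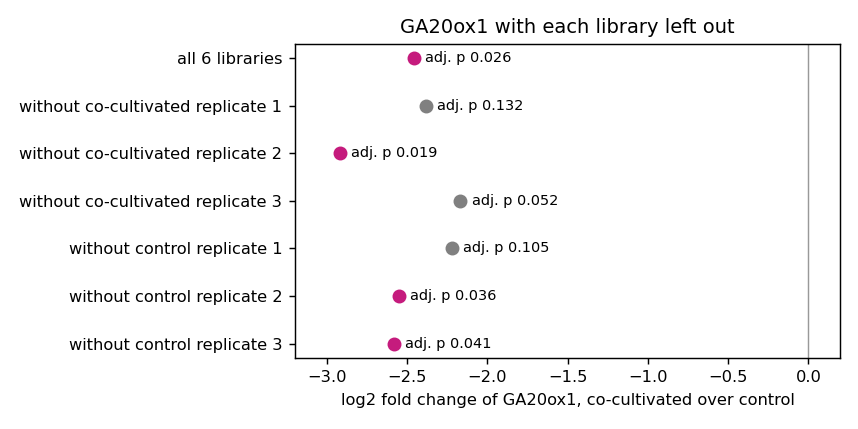
Log2 fold change of GA20ox1, co-cultivated over control, from all 6 libraries and with each library left out in turn; coloured points have an edgeR adjusted p under 0.05 and grey points do not. All values lie between −2.92 and −2.17, and 3 of the 6 reduced fits keep the call.

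Of the 6 root markers, 3 had an unadjusted edgeR p under 0.05, against 20.4% of all loci, and missed the threshold after adjustment. LSI1 and LSI2, silicon transporter genes of the root, stood at log2 fold changes of 1.08 ± 0.35 and 0.99 ± 0.29 (SE, edgeR adjusted p = 0.147 and 0.123). CSLD1, needed for root hair growth, was at 1.65 ± 0.41 (edgeR adjusted p = 0.0847), and the groups did not overlap for these 3 of the 6 markers, against 27.7% of all loci. The meristem and patterning genes SHR1, SCR1 and QHB were at −0.20, 0.20 and 0.62 with overlapping groups (edgeR adjusted p = 0.646, 0.595 and 0.607). The part of these marker levels in the GA20ox1 result was not tested.

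The other late synthesis genes, GA20ox2 and GA3ox2, were not called, and their difference from GA20ox1 was not tested. GA20ox2, the gene behind the semi-dwarf stature of many modern rice varieties, held 2.92, 5.36 and 2.61 CPM in co-cultivated replicates 1, 2 and 3, against 5.19, 0.736 and 6.08 CPM in control replicates 1, 2 and 3. The control group spanned the co-cultivated group, with control replicate 2 the lowest of all 6 libraries. Its log2 fold change was −0.14 ± 0.68 (SE, edgeR adjusted p = 0.929), and the 95% interval from −1.73 to 1.45 leaves room for a sizeable change either way. GA3ox2 encodes a gibberellin 3-oxidase, which makes the active hormone. It held 0.885, 2.50 and 0.671 CPM in co-cultivated replicates 1, 2 and 3, against 2.75, 0.552 and 3.38 CPM in control replicates 1, 2 and 3. Control replicate 2 was again the lowest library and control replicate 3 the highest, so GA20ox2 and GA3ox2 had the same highest and lowest library in each group. The log2 fold change of GA3ox2 was −0.72 ± 0.73 (SE, edgeR adjusted p = 0.621), with a 95% interval from −2.43 to 0.99.

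In the early part of the pathway, KAO was the member with the second smallest p. KAO encodes ent-kaurenoic acid oxidase, which makes the first gibberellin. It held 8.14, 8.34 and 6.67 CPM in co-cultivated replicates 1, 2 and 3, against 22.0, 8.14 and 12.4 CPM in control replicates 1, 2 and 3. The co-cultivated libraries lay close together and the control libraries did not, with control replicate 2 inside the co-cultivated range. The log2 fold change was −0.88 ± 0.35 (SE, unadjusted p = 0.0410, edgeR adjusted p = 0.222). Without control replicate 1 the value was −0.42, and without control replicate 2 it was −1.16 (edgeR adjusted p = 0.489 and 0.0704).

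CPS1, which makes the first cyclic intermediate, held 2.12, 1.77 and 3.99 CPM in co-cultivated replicates 1, 2 and 3, against 2.27, 1.66 and 3.38 CPM in control replicates 1, 2 and 3. The groups overlapped almost fully. The log2 fold change of CPS1 was 0.11 ± 0.42 (SE, edgeR adjusted p = 0.908), with a 95% interval from −0.86 to 1.08. KS1, which makes ent-kaurene, was the least counted member, with 12, 3 and 25 counts in replicates 1, 2 and 3 of the co-cultivated group, against 34, 20 and 30 counts in control replicates 1, 2 and 3. Its co-cultivated libraries spread 8.16-fold from lowest to highest and its control libraries 1.61-fold. KS1 stood at −1.15 ± 0.64 (SE, edgeR adjusted p = 0.352), with a 95% interval from −2.66 to 0.35.

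The inactivating enzymes among the members, GA2ox1 and GA2ox3, were not called. GA2ox3 held 82.8, 55.2 and 70.6 CPM in co-cultivated replicates 1, 2 and 3, against 64.7, 43.8 and 29.2 CPM in control replicates 1, 2 and 3. The co-cultivated mean of 69.5 ± 13.8 CPM exceeded the control mean of 45.9 ± 17.9 CPM (SD, n = 3 each), but control replicate 1 lay above co-cultivated replicate 2. The log2 fold change was 0.60 ± 0.30 (SE, edgeR adjusted p = 0.307), with a 95% interval from −0.10 to 1.30. GA2ox1 held 7.83, 4.55 and 4.46 CPM in co-cultivated replicates 1, 2 and 3, against 7.89, 4.14 and 5.65 CPM in control replicates 1, 2 and 3. Replicate 1 was the highest library of either group. GA2ox1 was at −0.07 ± 0.33 (SE, edgeR adjusted p = 0.927), with a 95% interval from −0.86 to 0.71.

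The receptor and repressor genes were measured with the most counts of the 10, at least 1965 per library, and their intervals were the narrowest. SLR1 held 157, 159 and 156 CPM in co-cultivated replicates 1, 2 and 3, against 143, 90.4 and 137 CPM in control replicates 1, 2 and 3. All 3 co-cultivated libraries were above all 3 control libraries, and their SD was 1.35 CPM, against 28.9 CPM in the control group. SLR1 was not called: its log2 fold change was 0.35 ± 0.20 (SE, edgeR adjusted p = 0.363), with a 95% interval from −0.11 to 0.81. GID1 held 159, 133 and 144 CPM in co-cultivated replicates 1, 2 and 3, against 194, 128 and 200.02 CPM in control replicates 1, 2 and 3. Control replicates 1 and 3 stood above every co-cultivated library and control replicate 2 below. GID1 was at −0.26 ± 0.20 (SE, edgeR adjusted p = 0.510), with a 95% interval from −0.74 to 0.21, so the interval takes in no 2-fold change in either direction.

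**Figure D3:**
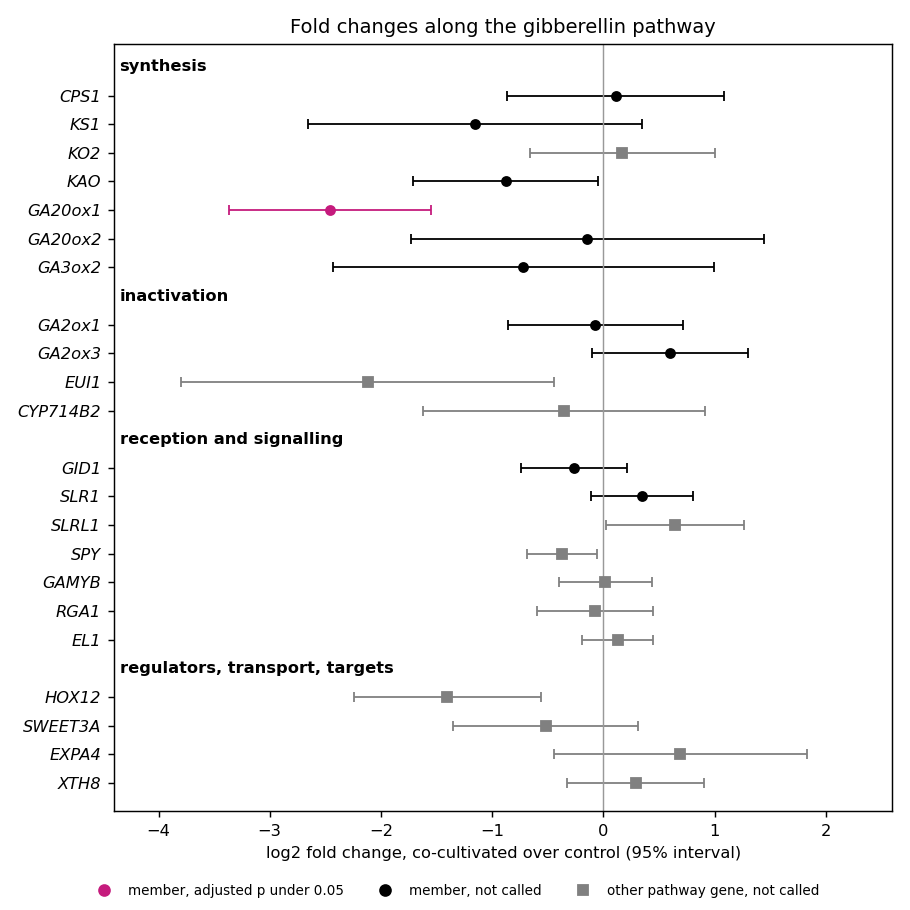
Log2 fold changes, co-cultivated over control, with 95% intervals from the edgeR fit, for the 10 members (circles) and the 12 other pathway genes tested (squares), ordered by role. GA20ox1 at −2.46 is the single called gene, and the intervals of KAO, EUI1, SLRL1, SPY and HOX12 also leave out 0 before adjustment.

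Much of the variation of the members lay within the control group. Control replicate 2 was the lowest of the 3 control libraries for 8 of the 10 members and the highest for 0. Among the 12 other pathway genes tested it was the lowest for 8 and the highest for 3. Over all tested loci it was the lowest for 40.4% and the highest for 39.0%. The exceptions among the members were GA20ox1 and GA2ox3, for which control replicate 3 was the lowest. The ratio of the highest to the lowest control library was 8.26 for GA20ox2, 6.12 for GA3ox2 and 2.71 for KAO, and between 1.56 and 2.22 for the other 7. In the co-cultivated group, KS1 had the widest ratio and SLR1 the narrowest, at 1.02. Without control replicate 2, 8 of the 10 members had a negative log2 fold change, and GA20ox1 remained the single call. Without control replicate 1 there were 5 negative values, and GA20ox1 was not called (edgeR adjusted p = 0.105).

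**Figure D4:**
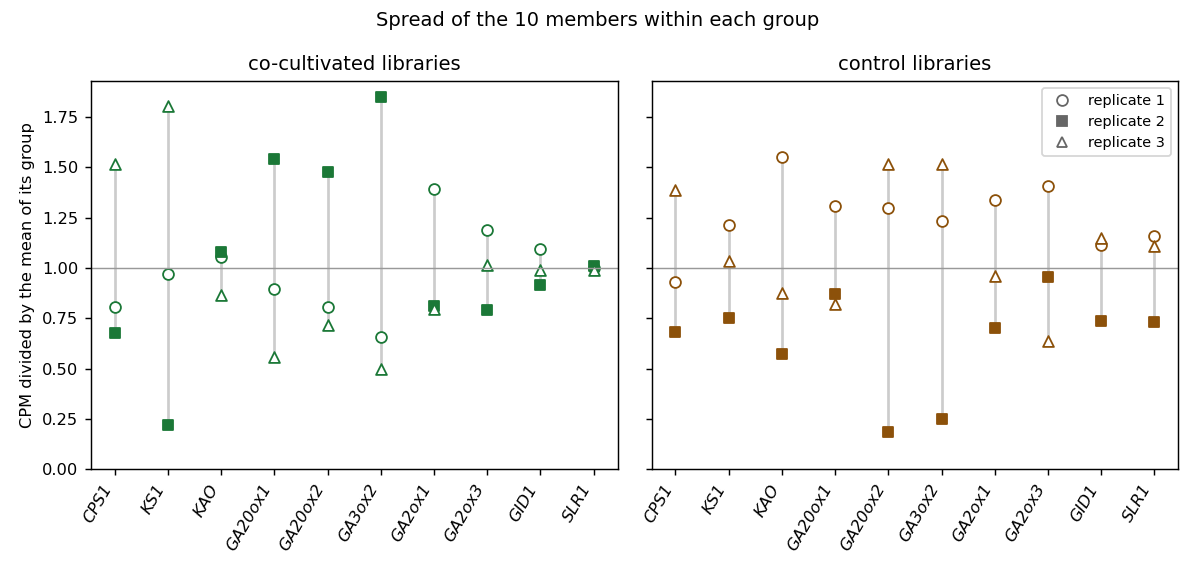
CPM of each member divided by the mean of its group, in co-cultivated libraries (left) and control libraries (right), with replicate 2 filled. Control replicate 2 lies lowest for 8 of the 10 members, and for GA20ox2 it is at 0.184 of the control mean.

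A further 29 genes of the pathway were listed by role, and the 15 whose symbol was found once in the gene table, on the chromosome and in the order their loci give, are reported. Of these 15, 12 were tested. edgeR called 0 of the 12, with 4 at an unadjusted p under 0.05 against 20.4% of all loci, and limma-voom called 0. DESeq2 called 2 lower, EUI1 and HOX12, against 2.89% of the loci it tested called lower. The groups did not overlap for 3 of the 12, against 27.7% of all loci, and the median log2 fold change was −0.03, as for the whole table. The 3 genes not tested held few counts. GA20ox3 had 0, 2 and 1 counts in replicates 1, 2 and 3 of the co-cultivated group, against 0 in each control library. CYP714B1 held 2 to 10 counts per library and YAB1 held 4 to 15.

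EUI1 and HOX12 stood out by size among these genes. EUI1 encodes a cytochrome P450 that inactivates gibberellins by epoxidation. It held 11.8, 5.68 and 12.0 CPM in co-cultivated replicates 1, 2 and 3, against 41.3, 8.55 and 78.0 CPM in control replicates 1, 2 and 3. Control replicate 2 lay within the co-cultivated range and the other control libraries far above it. The log2 fold change of EUI1 was −2.12 ± 0.71 (SE, unadjusted p = 0.0201, edgeR adjusted p = 0.159). Without control replicate 2 it was −2.61 and called (edgeR adjusted p = 0.0265), and without control replicate 3 it was −1.35 (edgeR adjusted p = 0.305).

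HOX12 encodes a homeodomain transcription factor known in rice to bind the EUI1 promoter and raise its expression. It held 10.7, 5.48 and 7.07 CPM in co-cultivated replicates 1, 2 and 3, against 30.4, 15.4 and 15.6 CPM in control replicates 1, 2 and 3. The groups did not overlap. HOX12 stood at −1.40 ± 0.36 on the log2 scale (SE, edgeR adjusted p = 0.0916), and with a replicate block its adjusted p was 0.0259. Over the fits without 1 library it ran from −1.70 to −1.01 and was called in 0 of 6.

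**Figure D5:**
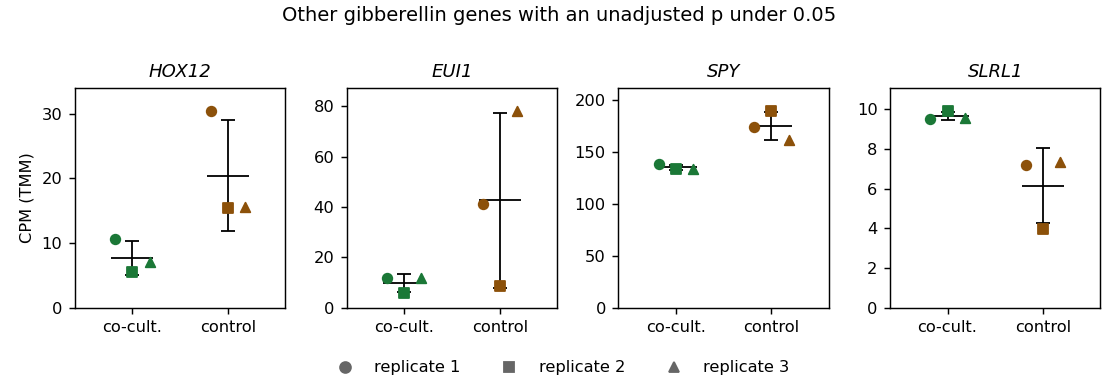
TMM-scaled CPM of the 4 other pathway genes with an unadjusted p under 0.05, with co-cultivated libraries on the left and control libraries on the right; points are libraries and bars are the mean and SD of 3 libraries. HOX12, SPY and SLRL1 do not overlap between the groups, and EUI1 does, through control replicate 2 at 8.55 CPM.

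The other signalling genes gave smaller fold changes. SPY, a repressor of gibberellin signalling, held 138, 133 and 134 CPM in co-cultivated replicates 1, 2 and 3, against 174, 189 and 162 CPM in control replicates 1, 2 and 3. The groups did not overlap, and the log2 fold change was −0.37 ± 0.13 (SE, edgeR adjusted p = 0.178). SLRL1, an SLR1-like gene, held 9.51, 9.91 and 9.55 CPM in co-cultivated replicates 1, 2 and 3, against 7.20, 3.95 and 7.34 CPM in control replicates 1, 2 and 3. It was at 0.65 ± 0.26 (SE, edgeR adjusted p = 0.225), with every co-cultivated library above the control libraries, as for SLR1. Over the fits without 1 library, SLRL1 ran from 0.41 to 0.79 and SLR1 from 0.16 to 0.46. Both were lowest without control replicate 2. EL1, a casein kinase that acts on SLR1, was at 0.13 (edgeR adjusted p = 0.629).

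KO2, which oxidises ent-kaurene, was at 0.17 ± 0.36 (SE, edgeR adjusted p = 0.824), with 25.0 CPM in control replicate 2 and between 52.9 and 71.7 CPM in the other 5 libraries. The estimated counts of KO2, RGA1 and the root marker SCR1 were not whole, so reads may have been divided between each of these genes and similar loci. CYP714B2, a P450 that hydroxylates gibberellins, was at −0.36 (edgeR adjusted p = 0.753). SWEET3A, which can transport gibberellin as well as sugar, was at −0.52 and the expansin gene EXPA4 at 0.69 (edgeR adjusted p = 0.457 and 0.469). GAMYB, RGA1 and XTH8 had overlapping groups and log2 fold changes of 0.02, −0.08 and 0.29.

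The 2 tested loci whose profile over the 6 libraries was nearest to that of GA20ox1 were Os05g0344200 and Os08g0414700, out of 20022 compared, each averaging 1 or more on the log2 CPM scale. The root mean square difference of their centred log2 CPM from that of GA20ox1 was 0.33 and 0.35. Among the members and the reported pathway genes, the nearest were HOX12 at 0.82 and KAO at 0.96. Os05g0344200 and Os08g0414700 carry no name in the sources used here. Their log2 fold changes were −2.06 ± 0.29 and −2.09 ± 0.32 (SE), which the choice by likeness to GA20ox1 favours.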

How the data were processed

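Per the submitters' processing notes, the build was IRGSP-1.0 and the authors used DESeq2 1.28.1. The sources used here do not name the aligner, counter or strand setting. The deposited table holds estimated counts, not scaled between libraries, which were rounded before testing (whole counts had been assumed). The main fit was edgeR 4.0.16 in R 4.3.3, with filterByExpr, TMM factors, a quasi-likelihood F test and group alone, adjusted by Benjamini-Hochberg over 24615 loci, with 4 residual degrees of freedom. DESeq2 1.42.0 and limma-voom 3.58.1 were alternatives.

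Members, lists and tests were chosen with earlier results of these data known. All 10 members were named, and from each other list every called gene and up to 3 with the smallest p; GAMYB, RGA1, XTH8 and the 3 genes not tested were added after their values were seen. Likeness used log2(CPM + 0.5). Names were checked against RefSeq symbols of assembly ASM3414082v1, so no coordinates are printed, and 14 of 29 other pathway genes that did not pass are not reported. Levels per length and shares within enzyme families were not computed, because transcript lengths were not used here. No pair of replicates agreed within sampling noise (chi-square per locus 21.7 to 113), so each was counted as 1 library. This check cannot tell separate boxes from separate preparations. The p-values judge the difference between groups against the spread between libraries.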

Additional observations from a re-analysis of the deposited data

How the results depend on the processing

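Over the scalings, filters, robust fit, abundant loci left out, DESeq2 and limma-voom, GA20ox1 stayed lower and called, with log2 fold changes from −2.55 to −2.44. Over the fits without 1 library, 0 to 1 members were called lower, 0 to 1 other pathway genes were called lower, and 56 to 361 of all loci were called higher and 83 to 493 lower. DESeq2 called 2 other pathway genes lower, and 1486 of all loci higher and 938 lower, against 360 and 288 by edgeR. Replicate numbers are shared between the groups. Deviations of same-numbered libraries correlated at 0.0571, 0.146 and 0.174, and those of differently numbered libraries at −0.203 to 0.0762. Co-cultivated replicates 2 and 3 correlated best with their own number, and replicate 1 did not. These values do not settle whether the numbers pair the libraries. The main fit used group alone, and a replicate block was an alternative. With a replicate block, 1 other pathway gene (HOX12) was called lower, 403 of all loci were called higher and 296 lower, and GA20ox1 was at −2.55 (edgeR adjusted p = 0.0288).

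GA20ox2, GA2ox1, CPS1 and KO2, which were not called, changed sign. GA20ox2 was at 0.24 by limma-voom, 0.055 with a replicate block and −0.63 to 0.29 over the fits without 1 library. Over those 6 fits GA2ox1 ran from −0.38 to 0.19, CPS1 from −0.32 to 0.42 and KO2 from −0.17 to 0.46. The cause was not tested. With 3 libraries a group, the intervals of the members GA20ox2, GA3ox2, GA2ox3, CPS1 and KS1 include both 0 and changes of more than 2-fold.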
